A study of Homo sapiens with 6 samples.

Results

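The extracellular matrix genes described here are 43 genes for laminins, collagens, matrix glycoproteins and proteoglycans, the lysyl oxidases that cross-link them, the proteases that cut them and the inhibitors of those proteases. They were taken from a fixed list of symbols, and a probe belonged to a member when the transcript accession in its annotation was a RefSeq transcript of that gene. This gave 61 probes for the 43 members, out of 50599 probes and 21743 genes with a symbol on the array. RNA was measured in MDA-MB-231, a human breast cancer cell line of mesenchymal type, with 2 arrays in each of 3 groups. One group had received the precursor of hsa-miR-205-5p, another that of hsa-miR-214-3p, and the control group a scrambled microRNA, and RNA was collected 72 h later. All groups shared the same reverse transfection with a lipid reagent and the same growth medium. A miRNA precursor raises the miRNA above the cell's own level, and only 1 cell line was used. The labels do not say whether the replicates came from separate cultures, so p-values measure the spread between these samples, which may be technical.

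The extracellular matrix is the protein network outside cells. Laminins and type IV collagen build the basement membrane under epithelia, fibrillar collagens give connective tissue its strength, and perlecan, agrin, thrombospondin and tenascin bind these networks to each other and to cell surface receptors. Plasminogen activators and matrix metalloproteinases (MMPs) cut matrix proteins, and tissue inhibitors of metalloproteinases (TIMPs) and serpins hold them in check. In breast cancer cells, matrix synthesis and matrix cutting are studied for their part in invasion and metastasis.

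A mature miRNA lowers mRNAs mainly through pairing of its seed, bases 2 to 8, with the message. The sequences of both transfected miRNAs are shown because they are what differs between the groups. They are from RefSeq (GRCh38.p14), with the seed in capitals. The first is encoded at chr1:209432166-209432187 on the plus strand, and the second at chr1:172138816-172138837 on the minus strand.
hsa-miR-205-5p: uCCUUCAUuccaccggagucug
hsa-miR-214-3p: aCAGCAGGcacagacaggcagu
The seeds, CCUUCAU and CAGCAGG, differ. Sites for them in the members' transcripts were not analysed here.

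On each array, between 20813 and 24759 of 58717 spots were well above background, which is 37.8% and 35.4% on the hsa-miR-205-5p arrays, 39.5% and 38.5% on the hsa-miR-214-3p arrays, and 40.7% and 42.2% on the control arrays. The part of this difference in the results was not tested. The root mean square log2 difference between the replicates was 0.67 for the control, 0.51 for hsa-miR-205-5p and 0.34 for hsa-miR-214-3p. VIM, CD44 and AXL, markers of this cell line's mesenchymal type, were above background on all 6 arrays, with a summed normalized log2 signal of 9.66 to 9.69 with hsa-miR-205-5p, 9.57 to 9.65 with hsa-miR-214-3p and 9.49 to 9.62 in the control. Of 6 fibroblast markers, 5 were above background on 0 arrays and LUM on 1. Of 6 luminal markers, EPCAM, CDH1, KRT18 and KRT8 were above background on all 6 arrays and ESR1 and PGR on 0, and their summed log2 signal was 9.91 to 9.99 with hsa-miR-205-5p, 9.30 to 9.46 with hsa-miR-214-3p and 9.36 to 9.66 in the control. EPCAM (log2 difference 2.40) and CDH1 (1.96) were higher with hsa-miR-205-5p than in the control. Of 3 leukocyte markers, CD14 was above background on all 6 arrays and 1.14 higher with hsa-miR-205-5p, and of 3 endothelial markers, PECAM1 was above background on 3 arrays, with log2 signals of -2.08 and -2.49 with hsa-miR-205-5p, -1.21 and -1.42 with hsa-miR-214-3p, and -0.41 and -0.47 in the control. In limma the adjusted p was 0.00879 for EPCAM, 0.00799 for CDH1 and 0.0243 for CD14. The part of these markers in the results was not tested.

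A probe was kept if 1 or more groups had it well above background on both their arrays. Of the 43 members, 35 had such a probe and were tested, each through the brightest one. Values are normalized log2 signals, that is, log2 of a probe's processed signal minus the array's 75th percentile, so that a difference of 1 is a 2-fold change. A member was called higher or lower at a limma adjusted p under 0.05, adjusted over all 18464 kept probes, and a change of at least 2-fold. MMP9 was tested only because of its signal with hsa-miR-205-5p, and ADAM12 only because of its signal with hsa-miR-214-3p, so their differences are given as descriptions. In bulk RNA, fewer cells that express a gene and less RNA of it per cell cannot be told apart.

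With hsa-miR-205-5p, 6 members were called higher than in the scrambled control and 1 lower, where 4.78% of all 11974 tested genes were called higher and 7.98% lower. The higher members were LAMA4, COL12A1, LOX, LOXL2, MMP1 and MMP9, and the lower one was TIMP1. The higher count is 5 without MMP9, which passed the filter only through the group where it was high. With hsa-miR-214-3p, 3 members were called higher (COL5A1, LOX and LOXL2) and 0 lower, where 1.09% of all tested genes were called higher and 2.03% lower. At an unadjusted limma p under 0.05 and 2-fold, 0 members were lower with hsa-miR-214-3p as well; by that rule 4.13% of all tested genes were lower and 2.66% higher with hsa-miR-214-3p, and 10% lower and 5.7% higher with hsa-miR-205-5p. The median log2 difference of the 35 members was 0.16 with hsa-miR-205-5p and 0.36 with hsa-miR-214-3p, beside 0.08 and -0.01 over all tested genes. Both comparisons use the same 2 control arrays.

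**Figure D1:**
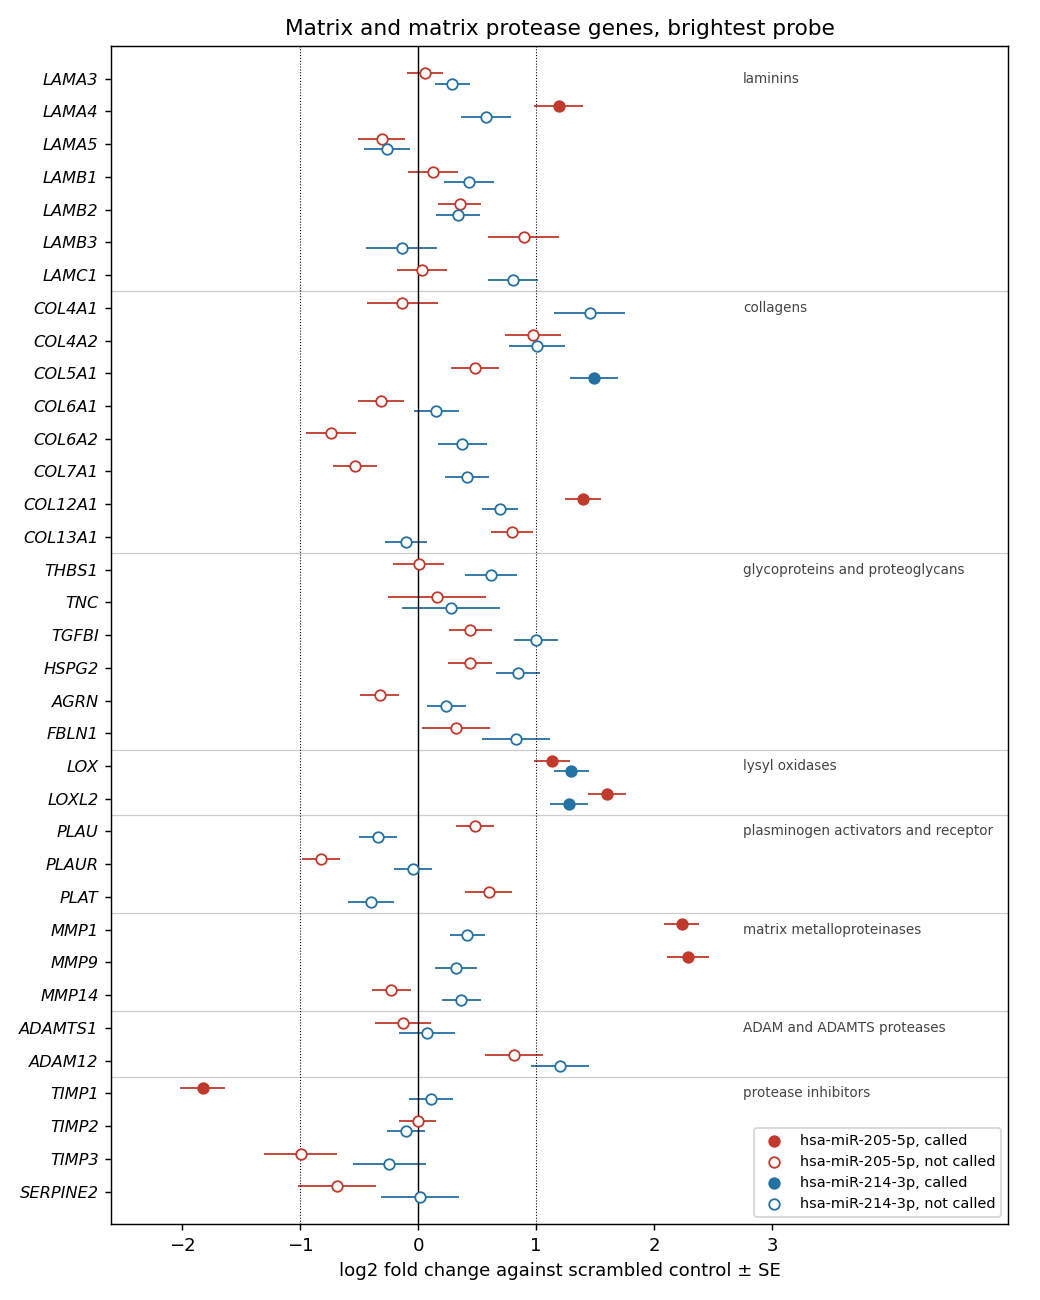
Log2 fold change against the scrambled control (x axis) of each tested member (y axis), with its standard error as a bar, for both precursors; filled markers are called and open markers are not. With hsa-miR-205-5p the members run from TIMP1 at -1.83 to MMP9 at 2.28, and with hsa-miR-214-3p from PLAT at -0.40 to COL5A1 at 1.49.

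The share of higher genes among all called genes depended on the processing. It was 37.4% for hsa-miR-205-5p, 35.0% for hsa-miR-214-3p and 44.8% for hsa-miR-205-5p against hsa-miR-214-3p. With normexp background correction these became 17.9%, 15.04% and 39.2%, and with scaling to the median 10.2%, 13.7% and 26.2%. Scaling to the median moved the median of all genes from 0.08 to -0.31 with hsa-miR-205-5p and from -0.01 to -0.18 with hsa-miR-214-3p, and the members above 0 from 22 to 15 and from 27 to 23. Each called member kept its direction under all alternatives that gave it a value.

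The lysyl oxidases were the only role whose tested members were all called higher with both precursors. LOX and LOXL2 are copper enzymes that oxidise lysines of collagen and elastin, the first step of their cross-linking. LOX had normalized log2 signals of 2.29 and 2.23 on the hsa-miR-205-5p arrays, 2.46 and 2.38 on the hsa-miR-214-3p arrays, and 1.14 and 1.11 on the control arrays. LOXL2 had 7.20 and 7.17, 6.88 and 6.85, and 5.69 and 5.48 in the same order. For both genes, all precursor arrays lay above both control arrays, with no overlap. LOX was 1.13 ± 0.15 (SE) higher with hsa-miR-205-5p (2.19-fold, limma adjusted p = 0.0115) and 1.30 ± 0.15 higher with hsa-miR-214-3p (2.46-fold, adjusted p = 0.0309). LOXL2 was 1.60 ± 0.16 higher with hsa-miR-205-5p (3.03-fold, limma adjusted p = 0.00828) and 1.28 ± 0.16 higher with hsa-miR-214-3p (2.43-fold, adjusted p = 0.0336). Against each other, the precursors differed by -0.16 ± 0.15 for LOX and 0.32 ± 0.16 for LOXL2, with adjusted p of 0.423 and 0.174 in limma. With normexp background correction, the LOX difference became 0.69 with hsa-miR-205-5p and 0.83 with hsa-miR-214-3p, under 2-fold in both, and with scaling to the median the former was 0.74.

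Of the 7 MMPs, 3 were tested, and the collagenase MMP1 was called higher with hsa-miR-205-5p. The gelatinase MMP9 also passed the thresholds, but entered the test only through its signal in that group, so its values are a description. MMP1, which cuts fibrillar collagen, had log2 signals of 6.17 on both hsa-miR-205-5p arrays, 4.31 and 4.39 with hsa-miR-214-3p, and 3.98 and 3.90 in the control. The hsa-miR-205-5p arrays lay above all others. The difference from the control was 2.23 ± 0.15 (SE; 4.70-fold, limma adjusted p = 0.00799) with hsa-miR-205-5p and 0.42 ± 0.15 (1.33-fold, adjusted p = 0.187) with hsa-miR-214-3p. MMP9, which cuts denatured collagen and type IV collagen, had 0.23 and 0.26 with hsa-miR-205-5p, -1.81 and -1.63 with hsa-miR-214-3p, and -1.91 and -2.18 in the control. It was above background on both hsa-miR-205-5p arrays, on 1 hsa-miR-214-3p array and on 1 control array. MMP9 differed from the control by 2.28 ± 0.18 (SE) with hsa-miR-205-5p. With hsa-miR-214-3p the difference was 0.32 ± 0.18, and normexp background correction took the former to 0.75, under 2-fold. MMP14, a membrane-anchored collagenase that also activates other MMPs, was above background on all 6 arrays and passed the test in neither comparison with the control (-0.23 ± 0.16 with hsa-miR-205-5p and 0.36 ± 0.16 with hsa-miR-214-3p).

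The other 4 MMPs did not pass the filter. MMP2 and MMP13 were above background on 0 arrays. MMP3, stromelysin, was above background on 1 hsa-miR-205-5p array, with log2 signals of -1.13 and -1.16 with hsa-miR-205-5p, -2.94 and -2.77 with hsa-miR-214-3p, and -4.28 and -2.57 in the control. MMP7, matrilysin, was above background only on hsa-miR-214-3p replicate 2, at -0.50, and its other 5 arrays lay between -4.60 and -3.38. The remaining members without a tested probe were COL1A1, SPARC, NID1 and FBN1, which were not well above background on any array. COL1A1, SPARC and FBN1 are typical products of fibroblasts.

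All 4 protease inhibitors were tested, and with hsa-miR-205-5p TIMP1 was called lower. TIMP1 is a secreted inhibitor of most MMPs, MMP1 and MMP9 among them. Its log2 signals were 5.07 and 4.85 with hsa-miR-205-5p, 6.89 and 6.89 with hsa-miR-214-3p, and 6.62 and 6.95 in the control. The hsa-miR-205-5p arrays lay below all others, while the hsa-miR-214-3p arrays fell within the range of the control. TIMP1 differed from the control by -1.83 ± 0.19 (SE; 3.54-fold, limma adjusted p = 0.0085) with hsa-miR-205-5p and by 0.11 ± 0.19 (adjusted p = 0.774) with hsa-miR-214-3p. TIMP3, which binds to the matrix itself, was at -0.996 ± 0.31 with hsa-miR-205-5p and did not pass (limma adjusted p = 0.0792). Its control arrays were apart, at 6.09 and 6.98, with 5.46 and 5.62 for hsa-miR-205-5p. TIMP2 differed from the control by -0.0048 ± 0.16 with hsa-miR-205-5p, and SERPINE2, an inhibitor of plasminogen activators and thrombin, by -0.69 ± 0.33 (limma adjusted p = 0.985 and 0.190).

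**Figure D2:**
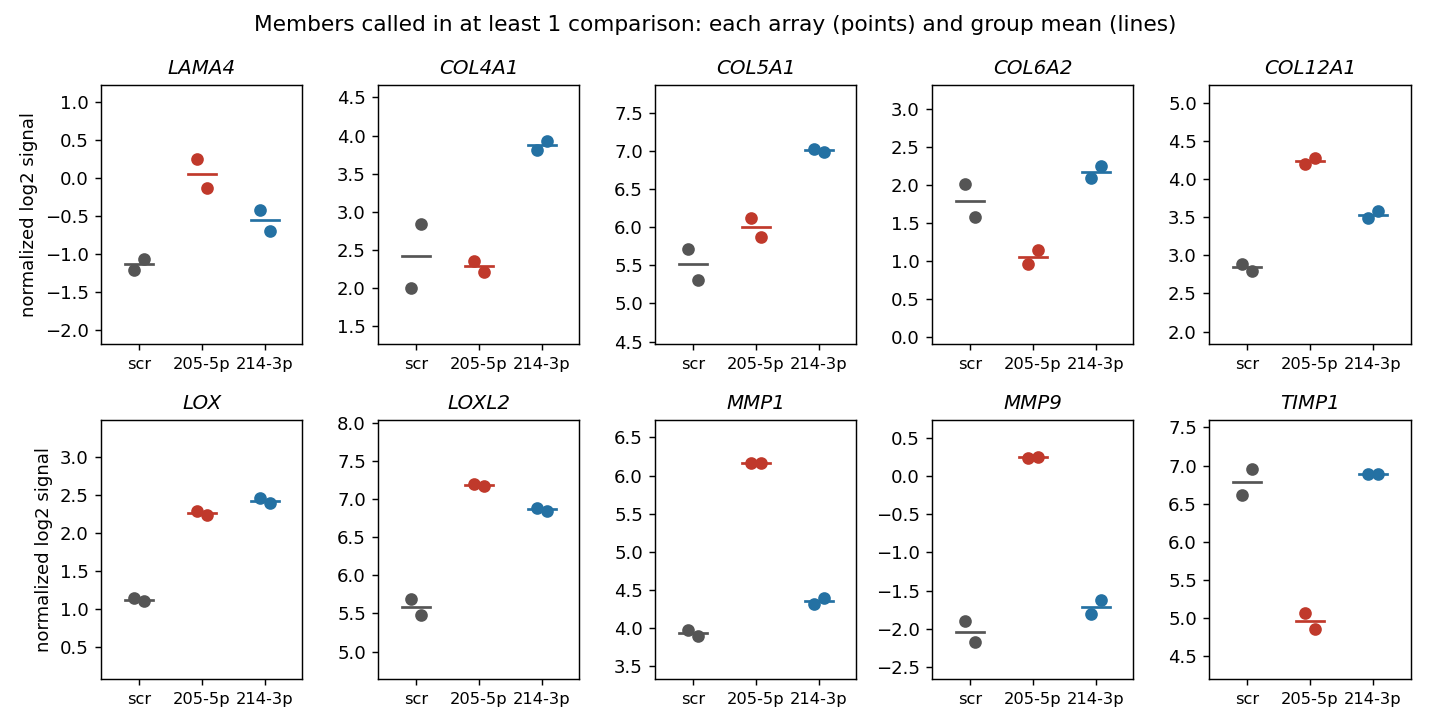
Normalized log2 signal (y axis, a separate range in each panel) of the 10 members called in at least 1 comparison, with a point for each array and a line for the group mean of 2 arrays; scr is the scrambled control. MMP1 and MMP9 were high and TIMP1 low only on the hsa-miR-205-5p arrays, and LOX and LOXL2 were high on the arrays of both precursors.

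Of 9 collagen genes, 8 were tested, and COL12A1 was called higher with hsa-miR-205-5p and COL5A1 with hsa-miR-214-3p. COL12A1 encodes a collagen that lies on the surface of collagen fibrils. Its log2 signals were 4.20 and 4.27 with hsa-miR-205-5p, 3.49 and 3.57 with hsa-miR-214-3p, and 2.89 and 2.79 in the control, and no groups overlapped. The difference from the control was 1.40 ± 0.15 (SE; 2.64-fold, limma adjusted p = 0.00888) with hsa-miR-205-5p, 0.81 with normexp background correction, and 0.69 ± 0.15 (adjusted p = 0.0802) with hsa-miR-214-3p. COL5A1, a chain of the type V collagen that starts fibril assembly, had 6.12 and 5.88 with hsa-miR-205-5p, 7.02 and 6.99 with hsa-miR-214-3p, and 5.72 and 5.31 in the control. The hsa-miR-214-3p arrays lay above all others. The difference was 1.49 ± 0.21 (2.81-fold, limma adjusted p = 0.037) with hsa-miR-214-3p and 0.48 ± 0.21 (adjusted p = 0.152) with hsa-miR-205-5p.

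COL4A1 and COL4A2 encode the chains of the main type IV collagen of basement membranes, and neither was called against the control. COL4A1 had log2 signals of 2.35 and 2.21 with hsa-miR-205-5p, 3.82 and 3.93 with hsa-miR-214-3p, and 2.00 and 2.84 in the control. COL4A2 had 7.43 and 7.81, 7.54 and 7.76, and 6.87 and 6.42 in the same order. With hsa-miR-205-5p the COL4A1 arrays fell within the control range, while those of COL4A2 lay above both control arrays. The differences with hsa-miR-205-5p were -0.14 ± 0.30 (SE; limma adjusted p = 0.766) for COL4A1 and 0.97 ± 0.24 (adjusted p = 0.0442, just under 2-fold) for COL4A2. With hsa-miR-214-3p they were 1.45 ± 0.30 and 1.01 ± 0.24, and neither passed the adjusted threshold (limma adjusted p = 0.0709 and 0.0918). Between the precursors, COL4A1 differed by -1.59 ± 0.30 and COL4A2 by -0.03 ± 0.24 (limma adjusted p = 0.0159 and 0.930); the difference between these genes was not tested.

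Both genes are read outward from a shared stretch of chromosome 13, and that promoter is shown because it serves a pair of members. In RefSeq (GRCh38.p14), the 300-base window around the start of COL4A1 is chr13:110307108-110307407 on the minus strand. The window of COL4A2 is chr13:110307034-110307333 on the plus strand, the windows overlap by 226 bases, and the starts are 127 bases apart. The capitals mark GC boxes (GGGCGG, or CCGCCC on the other strand), at -249 and -67 from the start of COL4A1.
COL4A1: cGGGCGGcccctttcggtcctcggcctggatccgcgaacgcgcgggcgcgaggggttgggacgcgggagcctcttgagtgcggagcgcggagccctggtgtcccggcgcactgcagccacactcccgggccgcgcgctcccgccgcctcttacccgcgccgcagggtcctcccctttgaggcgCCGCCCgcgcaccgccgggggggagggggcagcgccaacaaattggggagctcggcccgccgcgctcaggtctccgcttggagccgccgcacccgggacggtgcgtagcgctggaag
A window was at hand for 31 of the 43 members. The members without one, MMP1, MMP9 and LOXL2 among them, were not searched. The GC box, searched on both strands, lay in 24 of them (77.4%), beside 44.6% of 27305 promoters of the same length in the table. The TATA box TATAAA lay in 4 (12.9%, beside 12%), and the AP-1 site TGAGTCA in 3, LAMA3, PLAUR and MMP7 (9.68%, beside 4.92%). A match is a description of the letters, and no binding was measured.

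The remaining collagens were not called against the control. COL13A1, a collagen that spans the cell membrane, was higher with hsa-miR-205-5p by 0.79 ± 0.18 (SE; limma adjusted p = 0.0356, under 2-fold), with log2 signals of 5.43 and 5.48 against 4.81 and 4.51 in the control. COL6A2, a chain of the type VI collagen of beaded filaments, was at 0.97 and 1.14 with hsa-miR-205-5p, 2.08 and 2.25 with hsa-miR-214-3p, and 2.01 and 1.57 in the control. Its hsa-miR-205-5p arrays lay below all others, by -0.74 ± 0.21 against the control (limma adjusted p = 0.0644). COL7A1, the collagen of anchoring fibrils, gave -0.53 ± 0.18 with hsa-miR-205-5p and 0.41 ± 0.18 with the other precursor, and COL6A1 gave -0.32 ± 0.19 and 0.15 ± 0.19. None of these 4 values passed the adjusted threshold in limma.

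All 7 laminin genes were tested, and LAMA4 was called higher with hsa-miR-205-5p. LAMA4 encodes the alpha chain of the laminins found around blood vessels and muscle. Its log2 signals were 0.25 and -0.13 with hsa-miR-205-5p, -0.42 and -0.70 with hsa-miR-214-3p, and -1.21 and -1.06 in the control, and the groups did not overlap. The difference from the control was 1.19 ± 0.21 (SE; 2.28-fold, limma adjusted p = 0.0206) with hsa-miR-205-5p and 0.57 ± 0.21 (adjusted p = 0.191) with hsa-miR-214-3p. With normexp background correction the former was 0.43, and with scaling to the median 0.80. LAMB3, the beta chain of the epithelial laminin-332, had 8.08 and 7.60 with hsa-miR-205-5p against 7.26 and 6.64 in the control (0.89 ± 0.30, limma adjusted p = 0.0929). LAMC1, the most widely used gamma chain, was at 0.80 ± 0.21 with hsa-miR-214-3p (limma adjusted p = 0.110) and at 0.03 ± 0.21 with hsa-miR-205-5p. LAMA3, LAMA5, LAMB1 and LAMB2 lay between -0.31 and 0.43 in both comparisons and did not pass.

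Of the 9 glycoproteins and proteoglycans, 6 were tested, with 0 called in either comparison with the control. At an unadjusted limma p under 0.05 and 2-fold, 0 passed as well. With hsa-miR-214-3p all 6 differences were above 0, from 0.24 for AGRN, the agrin of basement membranes, to 0.995 for TGFBI, an adhesion protein that binds collagen. TGFBI had log2 signals of 6.27 and 6.25 with hsa-miR-214-3p against 5.44 and 5.09 in the control (limma adjusted p = 0.0588). HSPG2, the basement membrane proteoglycan perlecan, gave 0.85 ± 0.19 (SE; limma adjusted p = 0.0804), and THBS1, thrombospondin-1, gave 0.62 ± 0.22 (adjusted p = 0.182). With hsa-miR-205-5p the 6 members lay between -0.32 for AGRN and 0.44 for TGFBI.

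The plasminogen activators and their receptor were all tested, and 0 of 3 were called against the control. PLAUR, the receptor that holds urokinase at the cell surface, was lower with hsa-miR-205-5p by -0.83 ± 0.16 (SE; limma adjusted p = 0.0257, under 2-fold), with log2 signals of 4.12 and 4.04 against 4.81 and 5.01 in the control. PLAU, which encodes urokinase itself, was at 9.42 on both hsa-miR-205-5p arrays, 8.58 and 8.63 with hsa-miR-214-3p, and 9.06 and 8.83 in the control. PLAT, tissue plasminogen activator, was at 5.87 and 5.82, 4.90 and 4.80, and 5.46 and 5.04 in the same order. For both activators the hsa-miR-205-5p arrays lay above the control and the hsa-miR-214-3p arrays below it, but none of these differences from the control passed (limma adjusted p from 0.0894 to 0.298). For PLAU this holds only for the brighter of its 2 probes.

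ADAM12, a membrane-anchored metalloproteinase, and ADAMTS1, a secreted one that cuts proteoglycans, were not called. ADAM12 was above background on both hsa-miR-214-3p arrays, at -1.59 and -1.75, and on 0 other arrays, where it lay between -2.87 and -1.74. It was at least 1.65-fold higher with hsa-miR-214-3p than in the control, a bound set by the dimmest signals that could be told from background. ADAMTS1 differed from the control by -0.13 ± 0.24 (SE) and 0.08 ± 0.24, with overlapping groups.

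Compared directly, in the fit of all 6 arrays, whose shared spread includes the control arrays, 2 members were called higher with hsa-miR-205-5p than with hsa-miR-214-3p and 4 lower, where 9.18% of all tested genes were called higher and 11.3% lower. The median difference of the 35 members was -0.30, beside 0.12 over all tested genes. MMP1 was higher by 1.81 ± 0.15 (SE; 3.52-fold, limma adjusted p = 0.00383). MMP9 was at 1.96 ± 0.18, with 1 of the hsa-miR-214-3p arrays above background, and without it the higher count is 1. With normexp background correction the MMP9 difference was 0.64, that of COL6A2 -0.82 and that of COL5A1 -0.995, all under 2-fold. TIMP1 was lower by -1.93 ± 0.19 (3.82-fold, limma adjusted p = 0.00415), COL4A1 by -1.59 ± 0.30 (3.01-fold, adjusted p = 0.0159), COL6A2 by -1.11 ± 0.21 (2.16-fold, adjusted p = 0.0161) and COL5A1 by -1.01 ± 0.21 (2.01-fold, adjusted p = 0.0197). All 6 had non-overlapping groups, which is only a description of called members, as the share over all tested genes was not counted.

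Without the limit on fold change, 6 of the 35 members were higher (5 without MMP9) and 8 lower with hsa-miR-205-5p, where 17.9% of all tested genes were higher and 16% lower. The additional higher members were PLAT at 0.99, COL13A1 at 0.90, PLAU at 0.82 and COL12A1 at 0.71, while the dimmer PLAU probe differed by -0.84 (limma adjusted p = 0.0279). The additional lower members were COL7A1 at -0.95, PLAUR at -0.78, LAMC1 at -0.77 and MMP14 at -0.59. LAMB3 was over 2-fold higher with hsa-miR-205-5p, at 1.03 ± 0.30 (SE), and missed the threshold (limma adjusted p = 0.0501). It was called in the fit of only the 4 arrays compared (3 higher and 4 lower members), with the replicate block, the stricter filter, the percentile over probes above background on all arrays, the intensity trend and the mean of probes, and without either control array.

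**Figure D3:**
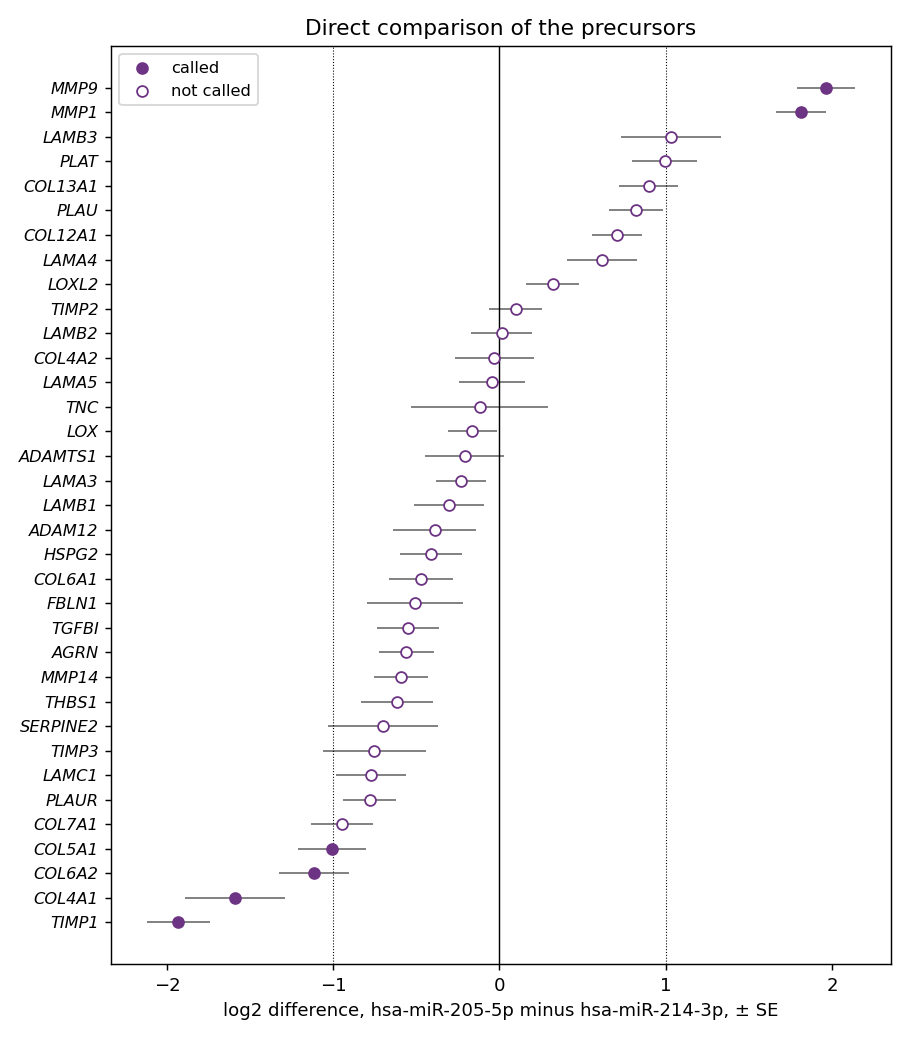
Log2 difference between the precursors, positive where hsa-miR-205-5p was higher (x axis), with its standard error for each tested member (y axis), ordered by size; dotted lines mark a 2-fold difference and filled points are called. MMP9 at 1.96 and MMP1 at 1.81 stand at the high end and TIMP1 at -1.93 at the low end.

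The calls rested on few arrays. Without hsa-miR-205-5p replicate 2, all 7 calls of hsa-miR-205-5p against the control were lost (limma adjusted p from 0.0559 to 0.0660, same directions). LOX and LAMA4 were also lost without hsa-miR-205-5p replicate 1 (limma adjusted p = 0.0562 and 0.0842), without either hsa-miR-214-3p replicate, and when only the 4 arrays compared were fitted (adjusted p = 0.0520 and 0.0606 in each of these 3 fits). The 3 calls of hsa-miR-214-3p were lost when any array other than scrambled control replicate 2 was left out, and when only the 4 arrays compared were fitted (limma adjusted p from 0.0806 to 0.0852). In the direct comparison, MMP1 stayed called without any 1 array, while the lower calls fell to 0 without hsa-miR-214-3p replicate 2 and to 1, TIMP1, without hsa-miR-214-3p replicate 1 or either hsa-miR-205-5p replicate.

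Of the tested members, 10 had more than 1 kept probe, and the probes of a gene differed in sign in 4 members with hsa-miR-205-5p and in 1 with hsa-miR-214-3p. In FBLN1, which is among these 4, the probe of the other sign was above background on 0 hsa-miR-205-5p arrays. PLAU was the widest case. Its brighter probe was 0.48 higher with hsa-miR-205-5p, and its dimmer probe differed by -1.21 (limma adjusted p = 0.0167), with log2 signals of 3.53 and 3.17 against 4.45 and 4.67 in the control. The direction of PLAU with hsa-miR-205-5p is therefore uncertain. LAMB2 gave 0.35 and -0.95, the latter with a limma adjusted p of 0.035. LAMA3 gave 0.06 and 1.18 with hsa-miR-205-5p, and FBLN1, an elastic fibre and basement membrane protein, gave 0.83 from its brightest probe and 1.36 from another with hsa-miR-214-3p (limma adjusted p = 0.0158 for the 1.18 and 0.0315 for the 1.36). The probes of COL6A2 stood close together in each comparison, at -0.74 and -0.76 with hsa-miR-205-5p. Of the called members, COL5A1 had a dimmer probe that was not called, at 0.69 with hsa-miR-214-3p. The second kept probe of LAMA4 was above background on 0 hsa-miR-205-5p arrays and 1 control array, so no difference is given for it.

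**Figure D4:**
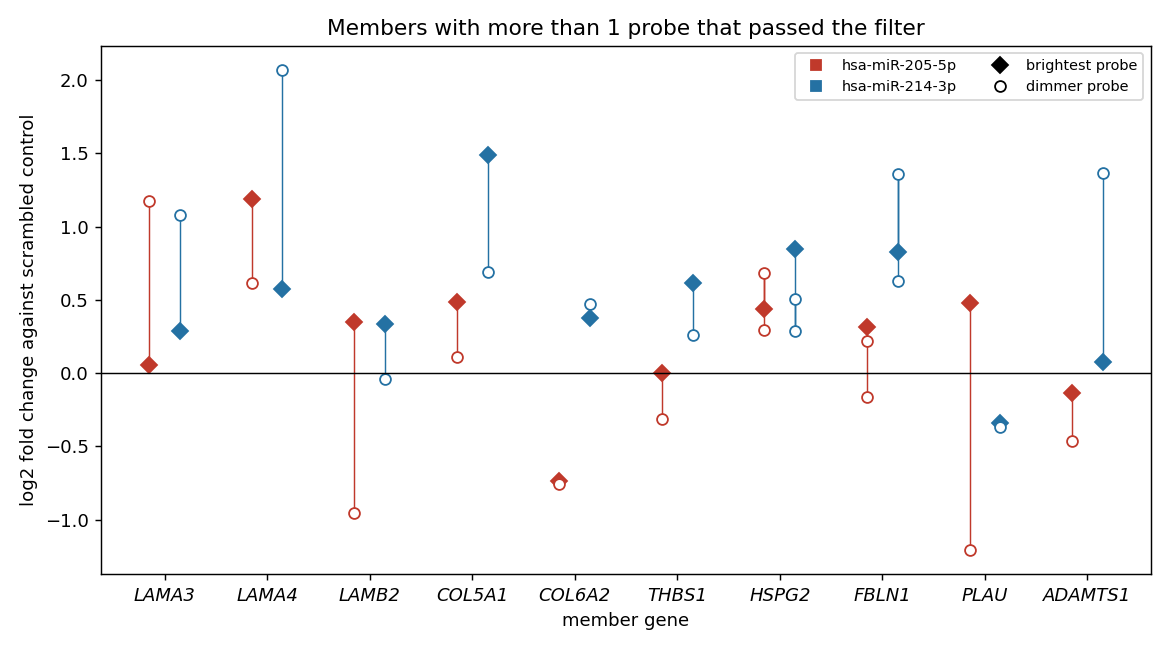
Log2 fold change against the scrambled control (y axis) of every kept probe of the 10 members with more than 1 (x axis); diamonds are the brightest probes, circles the dimmer ones, and lines join the probes of a gene. For PLAU with hsa-miR-205-5p the probes lie on opposite sides of 0, at 0.48 and -1.21.

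A further list of 109 matrix genes, of which 68 were tested, gives the surroundings of the members. With hsa-miR-205-5p, 13 of the 68 were called higher and 6 lower, with hsa-miR-214-3p 5 higher and 0 lower, and in the direct comparison 8 higher and 12 lower. As shares these are 19.1% and 8.82% (4.78% and 7.98% of all tested genes), 7.35% and 0% (1.09% and 2.03%), and 11.8% and 17.6% (9.18% and 11.3%). The higher counts with hsa-miR-205-5p and in the direct comparison include ADAMTS6, which passed the filter only through hsa-miR-205-5p, where it was high. Without the adjustment, at a limma p under 0.05 and 2-fold, 8 were higher and 2 lower with hsa-miR-214-3p (2.66% and 4.13% of all tested genes). By that rule 9 were higher and 13 lower in the direct comparison (10.3% and 12.8%). The 8 and the 13 include LAMA2, which passed the filter only through hsa-miR-214-3p, where it was high. SERPINF1, the secreted serpin PEDF, was at 0.70 and 0.57 in the control and 0.59 and 0.42 with hsa-miR-214-3p, but with hsa-miR-205-5p both arrays were too dim to be told from background, which puts it at least 4.76-fold lower with hsa-miR-205-5p than in the control (limma adjusted p = 0.00799). COL10A1 was likewise at least 1.76-fold lower, a bound under 2-fold. Its call (limma adjusted p = 0.031) was made on the measured signals, which with hsa-miR-205-5p were too dim to be told from background. TFPI2, a Kunitz-type inhibitor of matrix-cutting serine proteases, was higher with hsa-miR-205-5p by 2.01 ± 0.27 (SE), and LOXL3, a lysyl oxidase, by 1.77 ± 0.17 (limma adjusted p = 0.0118 and 0.0080). ADAMTS6, a secreted metalloproteinase, passed the filter only through hsa-miR-205-5p, where it was at -0.99 and -1.08, against -3.01 and -2.37 in the control, where 1 array was above background.

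With hsa-miR-214-3p, MMP24, a membrane-anchored MMP, was higher by 1.77 ± 0.21 (SE). P3H1, a collagen prolyl hydroxylase, and EFEMP2 and EFEMP1, fibulins of elastic fibres, were higher by 1.18, 1.13 and 1.01, and over these 4 genes the limma adjusted p ran from 0.0315 to 0.0472. With hsa-miR-205-5p, MMP24 and EFEMP1 were called higher as well, by 1.48 and 1.05 (limma adjusted p = 0.0132 and 0.0158), P3H1 was higher by 0.92, under 2-fold (adjusted p = 0.0214), and EFEMP2 was at 0.27 (adjusted p = 0.294). COL4A5 and COL4A6, a second pair of type IV collagen chains, were higher with hsa-miR-205-5p than with hsa-miR-214-3p, by 2.33 ± 0.28 for COL4A5 and at least 2.40-fold for COL4A6, for which both hsa-miR-214-3p arrays were too dim to be told from background (limma adjusted p = 0.00566 and 0.0069).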

How the data were processed

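Total RNA of 6 samples was labeled with Cy3 and hybridized to 1-colour Agilent SurePrint G3 Human GE arrays on 1 slide. The authors deposited the Feature Extraction output of each array (version 11.0 per the submitters' processing notes), whose processed signal is a linear-scale intensity after background subtraction, with no normalization between arrays. A log2 table of 50739 probes, deposited by the authors too, held the same sorted values in each column and served as an alternative.

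Control and outlier spots (245 to 463 per array) were removed, spots were averaged per probe, log2 was taken and each array's 75th percentile (35.1 to 58.0 before log2) was subtracted. The filter kept a probe if 1 or more groups had it well above background on both their arrays. Of 50599 probes, 18464 were kept, and 83.3% of these had a symbol through the RefSeq gene table (GRCh38.p14, used for names; the files hold accessions). Array number limits the precision. A fold written as at least is a bound: the signal of the brighter group against, on each array, the higher of the dimmest signal well above background and the probe's own. An adjusted p beside such a bound was computed on the measured signals.

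limma 3.58.1 in R 4.3.3 (lmFit and eBayes, 3 residual degrees of freedom) was run on all 6 arrays, with Benjamini-Hochberg adjustment. It was tested on simulated data. The members and lists were chosen with earlier results of these data known. Members called in at least 1 comparison are given on every array. Of the other matrix genes, at most 5 per comparison are named, the largest called changes among genes whose kept probes go the same way, and 1 gene that this rule selects is not reported here. Alternative settings were normexp on the median signal, offset 50 (no mean signal column was in the files), quantile normalization, scaling to the median, a 75th percentile over probes above background on all arrays, the authors' log2 table, a stricter or absent filter, a fit of only the 4 arrays compared, a replicate block, an intensity trend with robust spread, the methods' t-test, unadjusted p, no fold limit, other probe rules and leaving out each array. Plots were made with matplotlib 3.10.9.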

Additional observations from a re-analysis of the deposited data

Results flagged for a closer look

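The effects of the precursors differed from each other, in limma's direct test of hsa-miR-205-5p against hsa-miR-214-3p, for 6 members (2 of 35 higher, or 5.71%, and 4 lower, or 11.4%), where 9.18% of all tested genes were called higher and 11.3% lower. On the log2 scale the difference was 1.96 for MMP9, 1.81 for MMP1, -1.01 for COL5A1, -1.11 for COL6A2, -1.59 for COL4A1 and -1.93 for TIMP1, with adjusted p from 0.00383 to 0.0197 for the 5 other than MMP9. MMP9 passed the filter only through hsa-miR-205-5p, where it was high, so its value is a description. For MMP1, MMP9 and TIMP1 the difference from the control was called with hsa-miR-205-5p, and for COL5A1 with hsa-miR-214-3p. For COL4A1 and COL6A2 neither comparison with the control was called.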

How the results depend on the processing

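No called member changed direction under any alternative that gave it a value, and MMP9 had none under the stricter filter. For hsa-miR-205-5p against the control (6 members higher and 1 lower), the counts were 2 and 4 with normexp background correction (134 and 616 of all tested genes, against 572 and 956), 4 and 4 with scaling to the median (212 and 1876 of all tested genes), 3 and 1 without the filter, 8 and 2 without the fold limit (1175 and 1350 of all tested genes), 7 and 2 with the probe of smallest p, and 6 and 1 with the methods' t-test, or 0 and 0 after its adjustment. For hsa-miR-214-3p (3 higher and 0 lower), the higher count was 0 with scaling to the median (44 of all tested genes, against 131), without the filter, in the fit of only the 4 arrays and with the adjusted t-test of the methods. It was 5 with the intensity trend and robust spread, 6 at unadjusted p (319 of all tested genes) and 4 with the methods' t-test. The 6 and the 4 include ADAM12, which passed the filter only through hsa-miR-214-3p, where it was high. The lower count was 0 in each alternative. For hsa-miR-205-5p against hsa-miR-214-3p (2 higher and 4 lower), the counts were 1 and 2 with normexp (417 and 646 of all tested genes, against 1099 and 1352), 2 and 1 without the filter, 6 and 8 without the fold limit (2142 and 1913 of all tested genes), and 2 and 4 with the methods' t-test, or 2 and 2 after its adjustment. Leaving out each array gave 0 to 8 higher and 0 to 3 lower with hsa-miR-205-5p (8 and 3 without scrambled control replicate 1, 0 and 0 without hsa-miR-205-5p replicate 2), 0 to 5 higher and 0 lower with hsa-miR-214-3p (5 without scrambled control replicate 2), and 2 to 3 higher and 0 to 4 lower in the direct comparison. In these fits a lone array was given the spread of the remaining groups. For settings given without a count over all tested genes, a shift of the members cannot be told from a shift of all genes. The cause of these shifts was not tested, and the fits that left out arrays also had fewer arrays.

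The replicate numbers did not pair the samples: the deviations of same-numbered arrays correlated at 0.11, 0.01 and -0.05 over 18464 probes. With the replicate number as a block, 0 members were called higher with hsa-miR-214-3p in place of 3, with adjusted p of 0.0806 for COL5A1 and LOX and 0.0815 for LOXL2, while hsa-miR-205-5p had 6 higher and 1 lower and the direct comparison 3 higher, with LAMB3 gained, and 4 lower. A slide block was not run, since all arrays lay on 1 slide. Of the 43 members, 8 were too close to background to be tested.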

Other observations

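In the direct comparison of the precursors, the further matrix genes had these counts by role, where 9.18% of all tested genes were called higher with hsa-miR-205-5p and 11.3% lower. Of 13 tested collagen-modifying enzymes, 1 was called higher and 3 lower. Of 7 tested protease inhibitors outside the members, 1 was higher and 3 lower, and of 11 tested collagens, 3 higher and 2 lower. Of 19 glycoproteins and proteoglycans, 1 was higher and 2 lower, and of 10 ADAM, ADAMTS and other enzymes, 1 higher and 1 lower. The higher one of these enzymes was ADAMTS6, which passed the filter only through hsa-miR-205-5p, where it was high. Of 6 MMPs, 0 were higher and 1 lower, and of 2 laminins, 1 higher and 0 lower. At an unadjusted limma p under 0.05 and 2-fold, 1 of these MMPs was higher and 1 of these laminins lower, where 10.3% of all tested genes were higher and 12.8% lower by that rule. The laminin, LAMA2, passed the filter only through hsa-miR-214-3p, where it was high. No difference between roles was tested.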
